A study of Mus musculus with 12 samples.

Results

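The insulin-like growth factor (IGF) genes of interest here were 1 ligand, Igf1, the receptors Igf1r and Igf2r, and the binding proteins Igfbp2, Igfbp3, Igfbp4, Igfbp5, Igfbp6 and Igfbp7. They were chosen by symbol in the array's annotation, which gave 9 genes with 15 probes out of 15357 annotated genes. Their transcripts were measured on 12 Illumina bead arrays, with 4 groups of mouse cells and 3 arrays in each. Neomycin resistant primary embryo fibroblasts (PMEF_NL, here called MEF) and the sphere cells converted from fibroblasts, sampled at passage 5 or passage 15, were of the FVB/N strain. The last group was the J11 line of embryonic stem cells (MES), of the 129/Sv strain. The conversion was done in medium containing AlbuMAX I, a lipid-rich bovine serum albumin, and the study took MES as its control population. The labels do not say whether the converted fibroblasts carried the neomycin resistance. MES was 1 line and differed in strain from the other groups. The labels do not say whether the 3 arrays of a group came from separate cultures, so the p-values measure the spread between these arrays, which may be technical.

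IGF1 and IGF2 are secreted ligands that signal through the tyrosine kinase IGF1R. IGF2R, which also carries mannose 6-phosphate tagged enzymes to lysosomes, takes up IGF2 and clears it, and in mouse most tissues express it from the maternal allele. The binding proteins hold IGFs in the extracellular space, where they can extend the life of the ligand, keep it from the receptor or release it after proteolysis, and IGFBP7 binds IGFs only weakly. In culture, fibroblasts secrete several binding proteins and IGF ligand.

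Igfbp2 was higher and Igfbp5 lower at passage 15 than at passage 5 or in MEF, and RefSeq places these genes side by side on mouse chromosome 1 as neighbouring coding genes read from opposite strands. Igfbp7 was 33.4-fold lower at passage 15 than in MEF. For these 3 genes, the 250 bases before the RefSeq transcription start are given 5′ to 3′ on the gene's own strand in build GRCm38.p6. The windows are chr1:72824230-72824479 on the plus strand for Igfbp2 (1 of the 2 starts listed), chr1:72874866-72875115 on the minus strand for Igfbp5 and chr5:77408046-77408295 on the minus strand for Igfbp7. Capitals mark matches, on either strand, to 1 of 5 motifs searched as fixed letters: the TATA box with the letters TATAAA, the Sp1 GC box with GGGCGG, the CCAAT box by its name, the E-box with CACGTG and the AP-1 site with TGACTCA.
Igfbp2: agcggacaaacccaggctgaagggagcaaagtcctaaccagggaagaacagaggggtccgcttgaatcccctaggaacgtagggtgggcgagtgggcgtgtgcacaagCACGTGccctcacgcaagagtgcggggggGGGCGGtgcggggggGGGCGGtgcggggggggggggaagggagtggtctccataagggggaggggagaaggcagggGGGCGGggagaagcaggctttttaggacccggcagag
Igfbp5: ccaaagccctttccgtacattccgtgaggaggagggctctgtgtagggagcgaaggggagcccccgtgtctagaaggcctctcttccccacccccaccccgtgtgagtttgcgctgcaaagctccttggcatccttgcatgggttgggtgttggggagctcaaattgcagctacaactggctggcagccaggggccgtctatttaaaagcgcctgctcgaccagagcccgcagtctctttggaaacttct
Igfbp7: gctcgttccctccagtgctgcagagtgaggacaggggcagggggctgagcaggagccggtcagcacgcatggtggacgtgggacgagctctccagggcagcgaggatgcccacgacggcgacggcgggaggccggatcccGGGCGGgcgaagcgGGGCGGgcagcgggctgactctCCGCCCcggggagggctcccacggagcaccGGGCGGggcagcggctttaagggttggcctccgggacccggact
The Igfbp2 window held 14 CpG dinucleotides, 3 GC boxes with first bases at −113, −98 and −37 from the start, and 1 E-box. The Igfbp7 window held 26 CpG and 4 GC boxes, and none of the matches overlapped another. The Igfbp5 window held 10 CpG and no match to any of the 5 motifs. Over 27025 windows of the same length, the median was 6 CpG, and 33.0% held a GC box, 6.04% this E-box, 13.0% the TATA box, 34.5% CCAAT and 4.43% the AP-1 letters. A match describes the sequence only.

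Levels are normalized log2 intensities, and differences between groups are on the same log2 scale. A probe was above background on an array if its detection p was under 0.05. Of the 15 probes, 13 were above background on all 3 arrays of at least 1 group, and all 9 genes kept at least 1. The brightest such probe stands for the gene, and levels of different probes are not compared. A gene was called in a comparison if it changed at least 2-fold with a limma adjusted p under 0.05 over all 9343 genes tested. Where a probe was above background on no array of a group, the change is a bound, written as at least a number of fold: the mean of the brighter group against the dimmer group's background level, taken on each array as the lowest signal among probes above background, or the probe's own signal if higher.

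The arrays came from 3 chips. All passage 15 and MES arrays were on chip 1, and MEF and passage 5 had replicates 1 and 2 on chip 2 and replicate 3 on chip 3, so chip and group cannot be told apart where passage 15 or MES is compared with MEF or passage 5. Each array had 15761 to 19060 probes above background. Of 11 fibroblast markers on the array, 11 were above background on every MEF array, 5 to 8 on the passage 5 arrays, 3 on the passage 15 arrays and 4 or 5 on the MES arrays. Of 9 pluripotent stem cell markers, 7 or 8 were above background on every array, the arrays labelled MEF included, so these are not taken as fibroblast RNA alone. All 12 primitive endoderm markers were above background on each passage 5 array, and their mean log2 intensity was 9.10 to 9.61 there, against 6.81 to 7.11 in MEF, 6.29 to 6.48 at passage 15 and 6.11 to 6.21 in MES. In such bulk RNA, fewer cells of a type and less transcript per cell cannot be told apart.

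**Figure D1:**
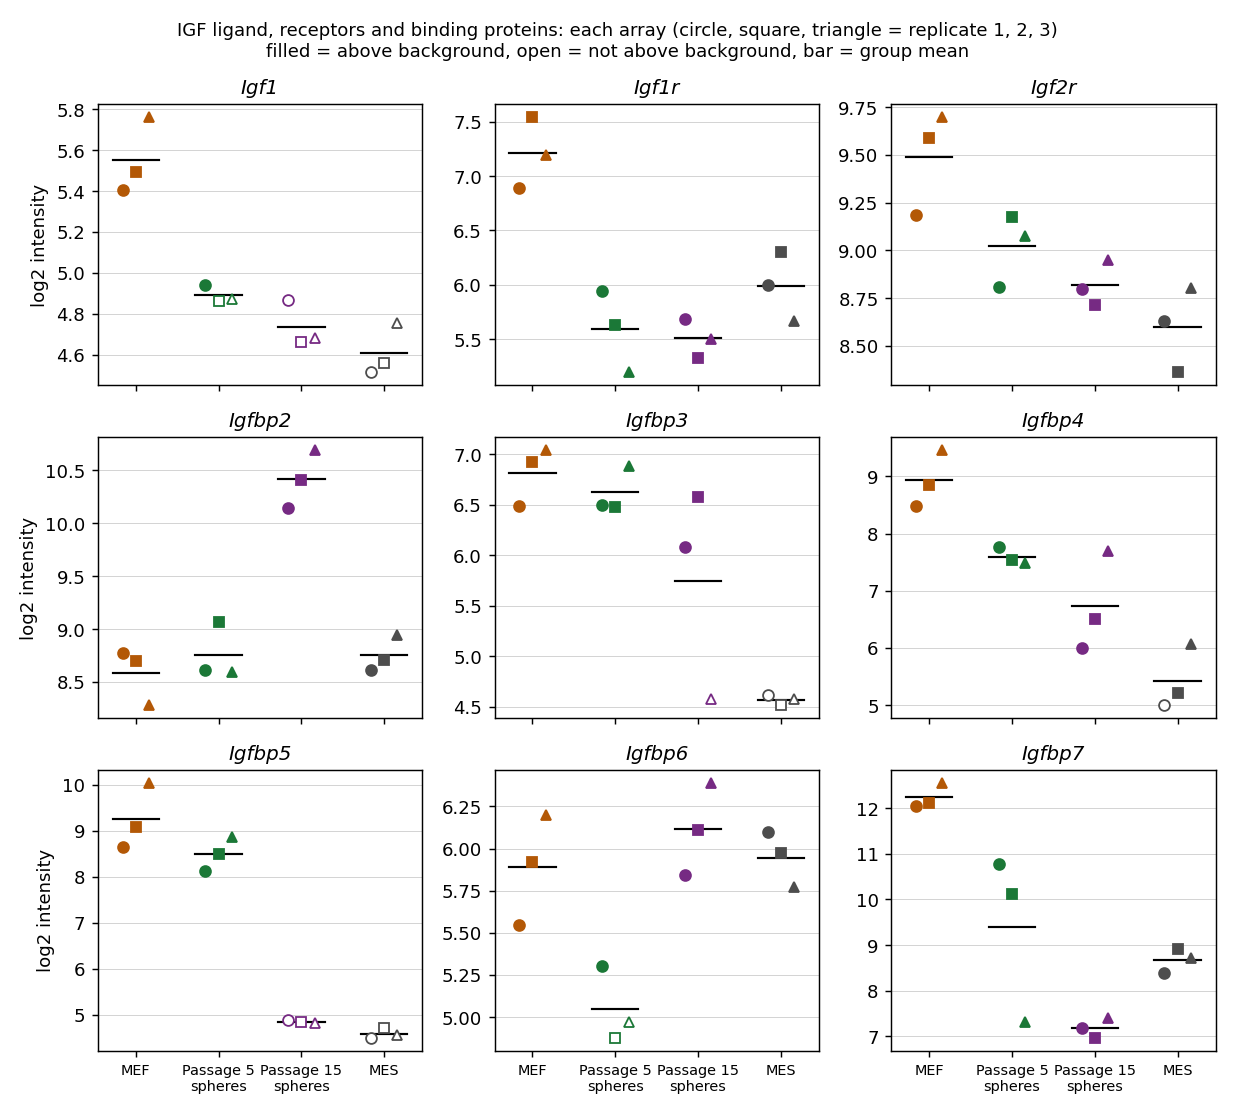
Normalized log2 intensity (y axis, its own range in each panel) of the 9 genes on each of the 12 arrays, by group (x axis); filled points were above background, open points were not, and bars are group means. Igfbp5 is near 4.8 on the 3 passage 15 arrays and Igfbp2 is above 10 on the same arrays, while the passage 5 arrays of Igfbp7 spread from 7.31 to 10.78.

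Igf1, the circulating and locally made ligand, was a dim transcript in all 4 groups. Its log2 intensity was 5.40, 5.49 and 5.76 on the MEF arrays, 4.94, 4.86 and 4.87 at passage 5, 4.87, 4.66 and 4.68 at passage 15 and 4.51, 4.56 and 4.75 in MES. By the brightest probe MEF was highest and overlapped no other group. By either kept probe only 1 passage 5 array and no passage 15 or MES array was above background, so Igf1 was kept through MEF alone. The other probe read 5.07, 5.19 and 5.75 in MEF and 4.81, 5.17 and 4.82 at passage 5, which overlapped. Its difference at passage 5 against MEF was −0.40 (adjusted p = 0.112 in limma over kept probes). Igf1 was at least 1.32-fold lower at passage 15 than in MEF and at least 1.35-fold higher in MEF than in MES. It was called in no comparison of the main setting. MEF against MES met the call, at a fitted difference of 1.02 set by background in MES, without MEF replicate 1 and also without MES replicate 3. It did so too with median scaling (1.01) and with no further background correction (1.28). The latter also called passage 15 against MEF (−1.05, set by background at passage 15), and scaling over detected probes called passage 5 against MEF (−1.07). The other ligand, Igf2, a fetal growth factor that is not one of the 9 genes, stood at 13.74, 14.22 and 14.54 in MEF, 10.83, 10.90 and 11.51 at passage 5, 6.34, 6.10 and 6.82 at passage 15 and 7.74, 7.46 and 7.63 in MES. Its 4 groups did not overlap, and it was lower at passage 5 than in MEF by 3.08 (SE 0.24) and lower at passage 15 than at passage 5 by 4.66.

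Igf1r, the signalling receptor, was lower in both sphere groups than in MEF. It stood at 6.89, 7.54 and 7.19 in MEF, 5.94, 5.63 and 5.20 at passage 5, 5.69, 5.33 and 5.50 at passage 15 and 6.0, 6.30 and 5.67 in MES, above background on all 12 arrays. MEF lay above every other array, and the other 3 groups overlapped one another. The difference was −1.62 (SE 0.22, adjusted p = 9.08e-05 in limma, 3.07-fold lower) at passage 5 against MEF and −1.70 (adjusted p = 2.10e-05, 3.25-fold lower) at passage 15 against MEF. Within chips, the passage 5 difference was −1.43 on chip 2 and −1.99 on chip 3. Passage 15 and passage 5 differed by −0.08, with a 95% interval of −0.56 to 0.39 that leaves room for a modest difference either way. Of the change between MEF and passage 15, 95.1% was present at passage 5, without a test on that share. MEF was 2.33-fold higher than MES in Igf1r (1.22, adjusted p = 3.88e-04), under 2-fold with the authors’ table (0.86).

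Igf2r, the clearance receptor, was above background on all 12 arrays and was called in no comparison of the main setting. Its arrays read 9.18, 9.59 and 9.70 in MEF, 8.81, 9.18 and 9.08 at passage 5, 8.80, 8.71 and 8.95 at passage 15 and 8.63, 8.36 and 8.80 in MES. The group means ran from 9.49 ± 0.27 in MEF through 9.02 ± 0.19 and 8.82 ± 0.12 in the spheres at passage 5 and passage 15 to 8.6 ± 0.22 in MES (SD, n = 3 each). Neighbours in that order overlapped between passage 5 and passage 15 and between passage 15 and MES, and not between passage 5 and MEF. That gap was narrow, with the closest arrays at 9.1771 at passage 5 and 9.1838 in MEF. Passage 5 and MES were also just apart, with the closest arrays at 8.8079 and 8.8041. Igf2r passed the adjusted p without reaching 2-fold at passage 5 against MEF (−0.47, adjusted p = 0.0409 in limma), at passage 15 against MEF (−0.67, adjusted p = 0.00296), at passage 5 against MES (0.42, adjusted p = 0.0461) and in MEF against MES (0.89, adjusted p = 4.85e-04), where it reached 1.04 and met the call without MEF replicate 1. With median scaling it met the call at passage 15 against MEF (−1.19) and against passage 5 (−1.08). In that setting it also met the call at passage 5 against MES (1.26) and in MEF against MES (1.36). The same scaling moved the median difference of all genes, to between −0.68 and 0.61.

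Igfbp5, a binding protein of fibroblast and muscle cultures that binds extracellular matrix, was bright in MEF and at passage 5 and not above background at passage 15 or in MES. It read 8.65, 9.08 and 10.04 in MEF, 8.11, 8.49 and 8.87 at passage 5, 4.88, 4.85 and 4.81 at passage 15 and 4.49, 4.70 and 4.56 in MES. The MEF and passage 5 arrays overlapped, and both lay above all arrays of the other 2 groups. At passage 15 it was at least 10.1-fold lower than at passage 5 (adjusted p = 1.11e-06 in limma). It was at least 17.1-fold lower at passage 15 than in MEF and at least 10.4-fold higher at passage 5 than in MES, and at least 17.6-fold higher in MEF than in MES. Passage 5 was 0.76 below MEF (adjusted p = 0.0475), under 2-fold with all arrays. It was −1.07 without MEF replicate 1, which met the call, and −0.37 without MEF replicate 3 (adjusted p = 0.18). The difference was −0.56 on chip 2 and −1.17 on chip 3.

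Igfbp7, a secreted protein with weak IGF affinity that is deposited in matrix, was brightest in MEF and lower at both passages. It read 12.04, 12.12 and 12.56 in MEF, 10.78, 10.12 and 7.31 at passage 5, 7.19, 6.96 and 7.39 at passage 15 and 8.38, 8.92 and 8.72 in MES. MEF lay above every other array, passage 5 replicate 3 fell among the passage 15 arrays, and passage 15 lay below MES without overlap. The difference was −5.06 at passage 15 against MEF (SE 0.62, adjusted p = 1.25e-05 in limma, 33.4-fold lower). At passage 5 against MEF it was −2.84 (adjusted p = 0.00286), but −1.80 without passage 5 replicate 3, and it was −1.64 within chip 2 and −5.25 within chip 3. Passage 15 was lower than passage 5 by 2.22 (adjusted p = 0.00785), a difference of −3.27 without passage 5 replicate 3. Against MES, passage 5 differed by 0.73 (adjusted p = 0.333), which became 1.78 and met the call without passage 5 replicate 3 and was 0.04 without passage 5 replicate 1. Passage 15 differed from MES by −1.49 (adjusted p = 0.0889 with all groups in the fit, 9.86e-04 with only these 2 groups), and MEF from MES by 3.57 (adjusted p = 2.73e-04).

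Igfbp4, a binding protein that generally holds IGFs away from their receptor and is cleaved by PAPP-A, stepped down over the 4 groups. It read 8.49, 8.85 and 9.46 in MEF, 7.77, 7.54 and 7.48 at passage 5, 6.0, 6.51 and 7.70 at passage 15 and 5.00, 5.22 and 6.07 in MES, where 2 of 3 arrays were above background. MEF did not overlap the other groups, and passage 15 replicate 3 reached into the passage 5 range. Against MEF, Igfbp4 was lower by 1.34 at passage 5 (SE 0.38, adjusted p = 0.0154 in limma) and by 2.20 at passage 15 (adjusted p = 2.47e-04). The passage 5 difference was −1.02 on chip 2 and −1.98 on chip 3, and without MEF replicate 3 it was −1.07 with an adjusted p of 0.0696, and −0.99 with median scaling. Against MES, it was higher by 2.16 at passage 5 and by 1.30 at passage 15 (adjusted p = 0.0233), and MEF stood 11.3-fold above MES. The passage 15 difference from MES lost its call without passage 15 replicate 3 (0.82), MES replicate 1 (1.09) or MES replicate 2 (1.2), with the authors’ table (0.84), with no detection filter (adjusted p = 0.0566) and with only these 2 groups in the fit (0.0598). Passage 15 against passage 5 gave −0.86 (adjusted p = 0.0711), and −1.34, which met the call, without passage 15 replicate 3. The other probe gave −1.32 in that comparison, which was called, and 0.93 at passage 15 against MES, which was not.

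Igfbp3, the main carrier of IGFs in serum, had 2 kept probes that disagreed. The brightest read 6.49, 6.93 and 7.05 in MEF, 6.50, 6.48 and 6.89 at passage 5, 6.08, 6.58 and 4.57 at passage 15 and 4.62, 4.52 and 4.57 in MES. By this probe MEF and passage 5 overlapped, passage 15 replicate 3 lay among the MES arrays, and no MES array was above background. The other probe read 5.31, 5.33 and 4.96 in MEF, 4.95, 5.09 and 4.80 at passage 5, 6.29, 6.43 and 6.67 at passage 15 and 4.65, 4.55 and 4.52 in MES. By that probe passage 15 lay above all other arrays. Passage 15 against MEF was thus −1.08 by the brightest probe (SE 0.37, adjusted p = 0.0198 in limma) and 1.26 by the other, both called, so no direction is given for Igfbp3 there. The first lost its call without passage 15 replicate 3 (−0.49), MEF replicate 2 (−1.02) or MEF replicate 3 (−0.96). Passage 15 against passage 5 was −0.88 (adjusted p = 0.0567) and 1.52, the first becoming −1.3 and called without passage 15 replicate 2. Both probes were higher at passage 15 than in MES, where neither was above background on any array. The brightest was at least 1.54-fold higher, with a fitted difference of 1.17 (adjusted p = 0.0306 in limma). For the other probe the fitted difference was 1.89, also set by background in MES. The first lost its call without any 1 of 5 arrays, passage 15 replicate 1 (1.01) or 2 (0.76) or MES replicate 1 (1.2), 2 (1.15) or 3 (1.18). By the brightest probe, passage 5 was at least 2.84-fold and MEF at least 3.26-fold above MES. The other probe gave fitted log2 differences of 0.37 and 0.63, set by background in MES.

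**Figure D2:**
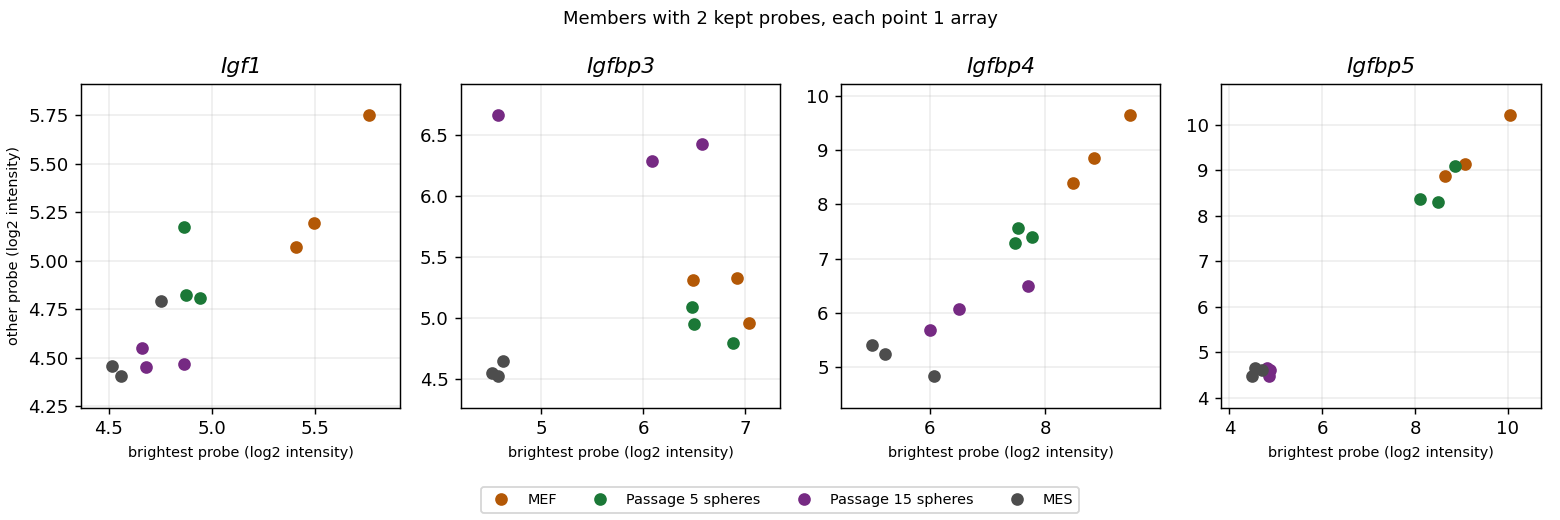
Log2 intensity of the brightest kept probe (x axis) and of the other kept probe (y axis) of the 4 genes with 2 kept probes; each point is 1 array, coloured by group. For Igfbp4 and Igfbp5 both probes put the group mean of MEF above passage 5 and that of passage 5 above the other groups. Single arrays overlap between MEF and passage 5 for Igfbp5 and, by the brightest probe, between passage 5 and passage 15 for Igfbp4. For Igfbp3 the passage 15 arrays, at 6.29 to 6.67 by the other probe, lie above all others by that probe alone.

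The 2 kept Igfbp5 probes gave fitted differences of −4.41 and −4.84 at passage 15 against MEF and −3.65 and −4.02 at passage 15 against passage 5, all set by background at passage 15. Igfbp7 had 2 further probes, which were above background on no array and were not used. The plot of probe pairs shows these patterns array by array.

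Igfbp2, a binding protein abundant in fetal tissues, rose at passage 15 against each of the other groups, which of the 9 genes only Igfbp3 also did, and that by its other probe alone. It read 8.78, 8.70 and 8.28 in MEF, 8.61, 9.07 and 8.59 at passage 5, 10.14, 10.40 and 10.69 at passage 15 and 8.62, 8.71 and 8.94 in MES. All 3 passage 15 arrays lay above the other 9, which overlapped. It was higher at passage 15 by 1.83 against MEF (SE 0.19, adjusted p = 2.89e-06 in limma, 3.55-fold), by 1.66 against passage 5 (adjusted p = 1.82e-05) and by 1.66 against MES (adjusted p = 6.34e-05, 3.15-fold). The rise against passage 5 was 0.86, under 2-fold, with median scaling of the arrays. Passage 5 and MES differed by 0.00, with a 95% interval of −0.40 to 0.41. Of the change between MEF and passage 15, 9.32% was present at passage 5, without a test on that share. It rests on a passage 5 difference from MEF of 0.17 (adjusted p = 0.532 in limma), which was 0.49 with median scaling.

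Igfbp6, which prefers IGF2 over IGF1, was a dim transcript with its low point at passage 5. It read 5.55, 5.92 and 6.20 in MEF, 5.30, 4.88 and 4.97 at passage 5, 5.84, 6.11 and 6.39 at passage 15 and 6.10, 5.97 and 5.77 in MES. Passage 5 overlapped no other group, and 1 of its 3 arrays was above background, while the other 3 groups overlapped. Igfbp6 was higher at passage 15 than at passage 5 by 1.06 (SE 0.19, adjusted p = 4.65e-04 in limma), but by 0.98 without passage 5 replicate 2 and 0.93 without passage 15 replicate 3, both under 2-fold. It was 0.61 with the authors’ table and 0.56 with median scaling, not called in either. Passage 5 was 0.84 below MEF (adjusted p = 0.00375) and 0.90 below MES (adjusted p = 0.0017), and neither reached 2-fold with all arrays. They met the call without MEF replicate 1 (−1.01) and without passage 5 replicate 1 (−1.02).

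**Figure D3:**
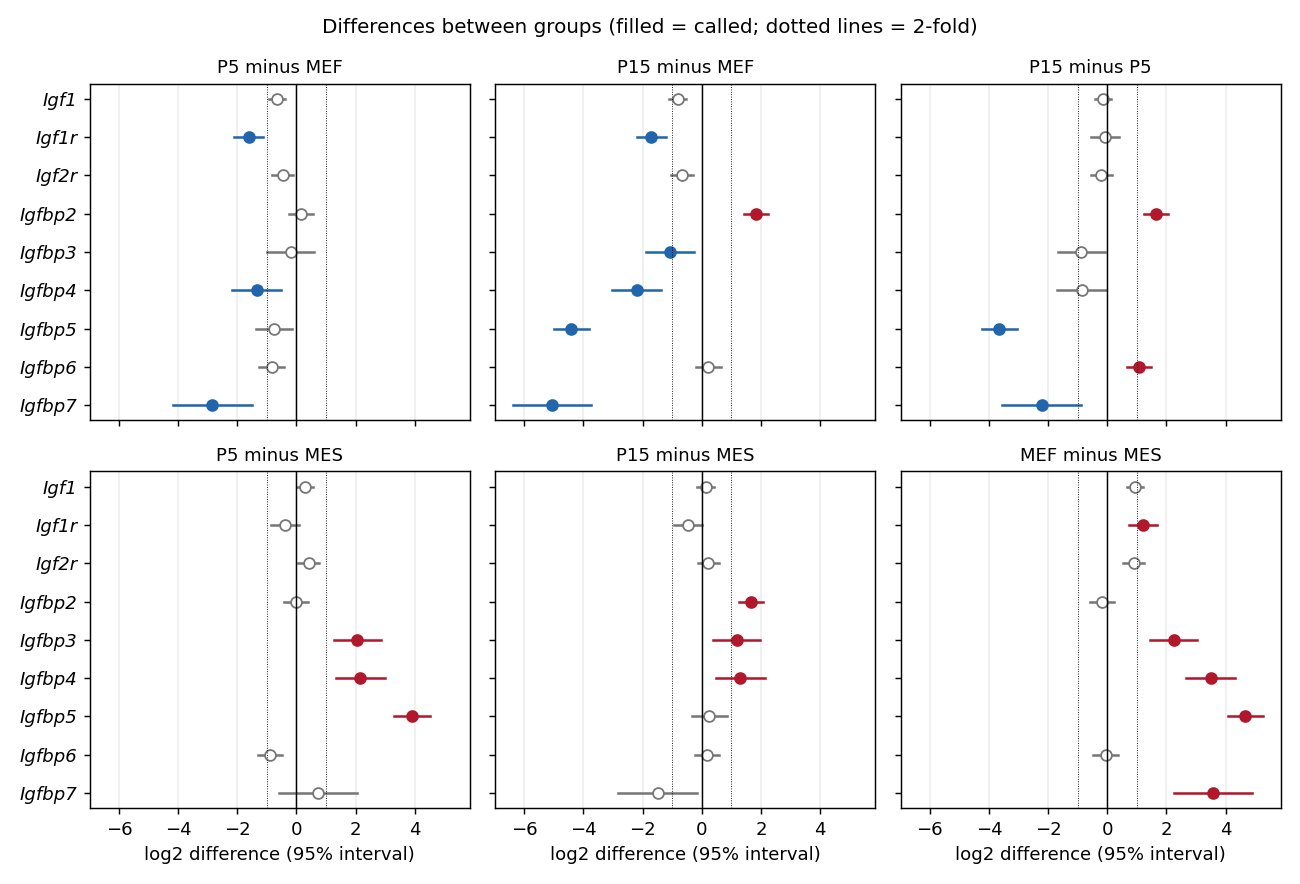
Log2 differences (x axis, first group minus second) with 95% intervals of the 9 genes (y axis) in the 6 comparisons; filled points were called, dotted lines mark 2-fold. Igfbp5, at background at passage 15, and Igfbp7 reach fitted values of −4.41 and −5.06 at passage 15 against MEF, and Igfbp2 lies at 1.66 to 1.83 in the 3 comparisons of passage 15.

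Taken by comparison, passage 5 against MEF had 3 of the 9 genes called, Igf1r, Igfbp4 and Igfbp7, where 11.8% of all genes tested were called. All 3 were lower, against 6.98% of all genes called lower and 4.86% called higher, and 4 more genes passed the adjusted p below 2-fold, all lower. By the adjusted p alone, 7 of the 9 were thus lower and 0 higher, beside 1417 lower and 1947 higher of the 9343 genes. Igf1, 1 of the 7, passed the detection filter through MEF alone, so the filter favoured a lower value outside MEF. With a filter at a detection p under 0.01 it was not tested, and its other probe did not pass the adjusted p. The median difference of the 9 genes was −0.76, beside 0.05 over all genes. In 6 of the 9 the arrays of the groups did not overlap, and 51.6% of all genes were like that. Igf1 was among the 6 by its brightest probe alone, and Igf2r by a narrow gap. With the chip as a fixed block, 3 of the 9 genes were again called, beside 1111 of all genes.

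Passage 15 against MEF had 6 of the 9 called, beside 26.5% of all genes. Igfbp2 was higher (12.2% of all genes were) and Igf1r, Igfbp3 by its brightest probe, Igfbp4, Igfbp5 and Igfbp7 were lower (14.3% of all genes). The median difference was −1.08, against 0.13 over all genes, and 7 of 9 did not overlap, beside 69.8%. Passage 15 against passage 5 had 4 of 9 called, beside 17.0% of all genes. Igfbp2 and Igfbp6 were higher and Igfbp5 and Igfbp7 lower, where 6.73% of all genes were called higher and 10.3% lower. In the main setting the median was −0.20 beside 0.01, and 3 of 9 did not overlap, beside 66.6%. With median scaling, 0 of the 9 were called higher and 5 lower, Igf2r, Igfbp3, Igfbp4, Igfbp5 and Igfbp7. Of all genes, 115 were then called higher and 3077 lower, and the median difference of all genes was −0.68.

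Against MES, passage 5 had Igfbp3, Igfbp4 and Igfbp5 called higher and no gene of the set called lower, 3 of 9 beside 14.7% of all genes called, 9.96% higher and 4.69% lower. The median was 0.42 beside −0.05, and 6 of 9 did not overlap, beside 64.2%. Passage 15 had Igfbp2, Igfbp3 and Igfbp4 called higher, 3 of 9 beside 6.90% called, 3.36% higher and 3.54% lower. Its median was 0.22 beside 0.01, and 3 of 9 did not overlap, beside 42.9%. Of these 3, Igfbp2 alone was still called by the authors' normalized table. MEF had Igf1r, Igfbp3, Igfbp4, Igfbp5 and Igfbp7 called higher, 5 of 9 beside 21.3% called, 13.0% higher and 8.27% lower. Its median was 1.22 beside −0.16, and 7 of 9 did not overlap, beside 66.2%. These comparisons share groups and are not independent of one another.

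**Figure D4:**
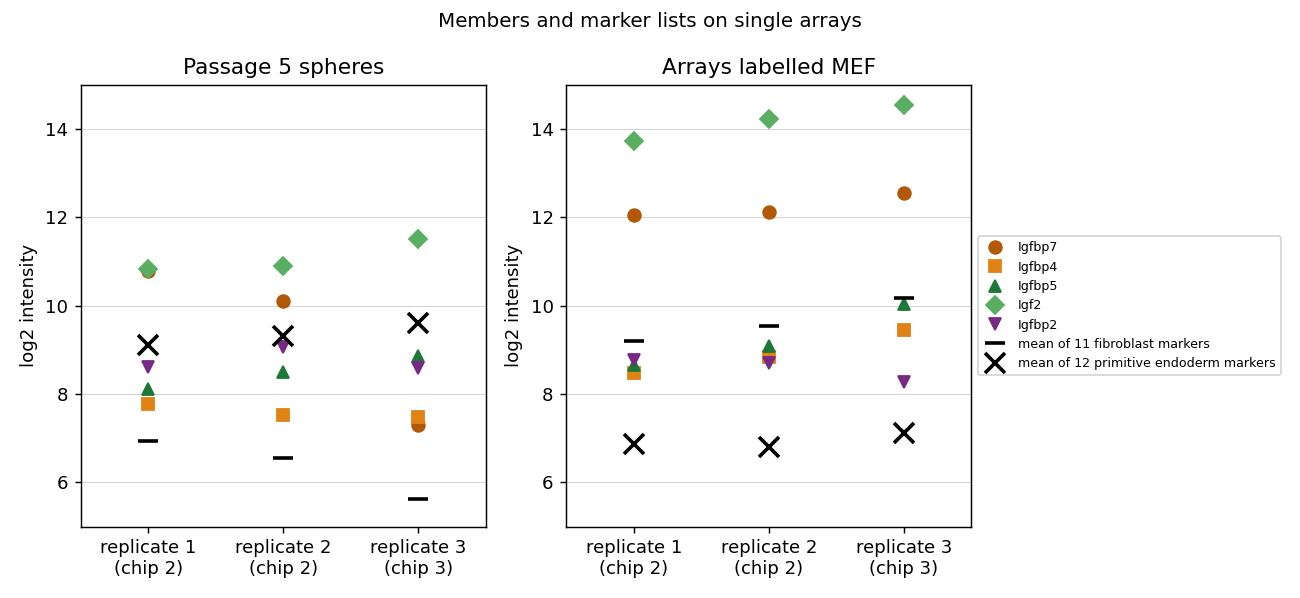
Log2 intensity (y axis) of 5 genes and the mean of 2 marker lists on the 3 passage 5 arrays (left) and the 3 MEF arrays (right), by replicate (x axis). On passage 5 replicate 3, Igfbp7 is at 7.31 and the fibroblast mean at 5.61, both lowest of the 3 arrays, while Igfbp5, Igf2 and the primitive endoderm mean are highest; levels of different genes are not comparable.

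Single arrays differed within passage 5 and within MEF, as the plot of genes and marker lists on single arrays shows. They also differed within passage 15, which that plot leaves out. There, replicate 3 was lowest in Igfbp3 by its brightest probe (4.57, against 6.08 and 6.58) and highest in Igfbp4 (7.70, against 6.0 and 6.51). The mean of the 11 fibroblast markers was 6.94, 6.56 and 5.61 on passage 5 replicates 1, 2 and 3, and their summed linear intensity was 6875, 5427 and 2861. Igfbp7, Igfbp4, Igf1r, Igfbp2 and the other Igfbp3 probe were lowest on replicate 3 too. Igfbp5, Igf2 and Igfbp3 by its brightest probe were instead highest on replicate 3, as was the primitive endoderm mean of 9.10, 9.32 and 9.61. Igf1, Igf2r and Igfbp6 lay between the other arrays there. Of the MEF arrays, replicate 3 was highest in the fibroblast markers (10.17, against 9.20 and 9.53). It was highest too in Igf1, Igf2r, Igfbp3 by its brightest probe, Igfbp4, Igfbp5, Igfbp6, Igfbp7 and Igf2. Igf1r was highest on replicate 2, and Igfbp2 and the other Igfbp3 probe were lowest on replicate 3. Replicate 3 was also lowest in the pluripotent markers, with 8.85, against 9.56 and 9.37. The part of these markers in the differences above was not tested.

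Other genes of the IGF system came from 7 lists by role, with 49 genes, of which 32 were tested. Passage 5 against MEF had 0 called higher and 6 lower, beside 4.86% and 6.98% of all genes. Beside Igf2, these were Grb10, an imprinted adaptor that dampens receptor signalling (−3.06, with 9.27 ± 0.38 at passage 5 and 12.32 ± 0.38 in MEF, SD, n = 3 each), Irs1, a docking protein of the activated receptor (−2.55), Igfbpl1 (−1.5), the metalloprotease gene Adam12, at least 3.05-fold lower, and Adamts1, at least 2.59-fold lower. None of the 7 PI3 kinase and AKT genes and none of the 7 mannose 6-phosphate sorting genes was called there, although 2 of the first and 1 of the second passed the adjusted p below 2-fold. Over all genes, 3364 of 9343 passed the adjusted p there at any size of change.

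Passage 15 against MEF had 1 of the 32 higher and 12 lower, beside 12.2% and 14.3% of all genes. Irs1 was not above background at passage 15 and was at least 9.55-fold lower. Stc1 and Stc2, stanniocalcins that inhibit the PAPP-A protease, were at least 3.59-fold lower and lower by 1.77. Shc1, an adaptor to the Ras pathway, was the 1 gene that rose, by 1.46. M6pr, the cation-dependent mannose 6-phosphate receptor, was lower by 1.04 with the brightest probe, and its other probe gave 1.05, so its direction is not given. The first fell under 2-fold without MEF replicate 1 (−0.98) or passage 15 replicate 1 (−0.99). Passage 15 against passage 5 had 1 higher and 5 lower, beside 6.73% and 10.3%. Shc1 was at least 2.59-fold higher, and Stc2 (−1.90), Stc1, Nagpa (−1.47), which uncovers the mannose 6-phosphate tag, and Igf2bp1 (−1.05), which binds Igf2 mRNA, were lower beside Igf2. The other Igf2bp1 probe gave −0.63, and its call was lost with the mean over probes (−0.84) and with scaling over detected probes (−0.92).

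Against MES, passage 5 had 6 of the 32 higher and 1 lower, beside 9.96% and 4.69% of all genes. The lower one was the docking protein gene Gab1 (−1.13). Nagpa was at least 3.4-fold higher, Stc2 was higher by 1.86, and Irs1 was at least 1.67-fold higher, a log2 difference of 1.04 whose call was lost without passage 5 replicate 1 (0.88) or MES replicate 1 (0.98). Passage 15 had 1 higher, the sorting receptor gene Sort1 (1.31, and 0.39 and 1.59 by its other probes), and 3 lower: Igf2 (−1.19), Gab1 (−1.14) and Gga1, an adaptor of Golgi sorting (−1.18, and −0.98 without MES replicate 1), beside 3.36% and 3.54% of all genes. MEF had 11 higher and 1 lower, beside 13.0% and 8.27%, with Igf2 (6.55), Irs1 (at least 9.81-fold) and Grb10 (3.10) in front and Gab1 lower (−1.54). With the authors’ table, calls fell under 2-fold for Igfbpl1 at passage 5 (−0.90) and passage 15 (−0.89) against MEF. At passage 15 against MEF, those of Shc1 (0.85), Pik3r3 (−0.975) and Nagpa (−0.65) did too. The same held for Shc1 (0.87) and Nagpa (−0.93) at passage 15 against passage 5 and Irs1 at passage 5 against MES (0.60). It also held for Igf2 (−0.90) and Gga1 (−0.89) at passage 15 against MES. Gab1 at passage 5 against MES was −0.48 with median scaling.

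**Figure D5:**
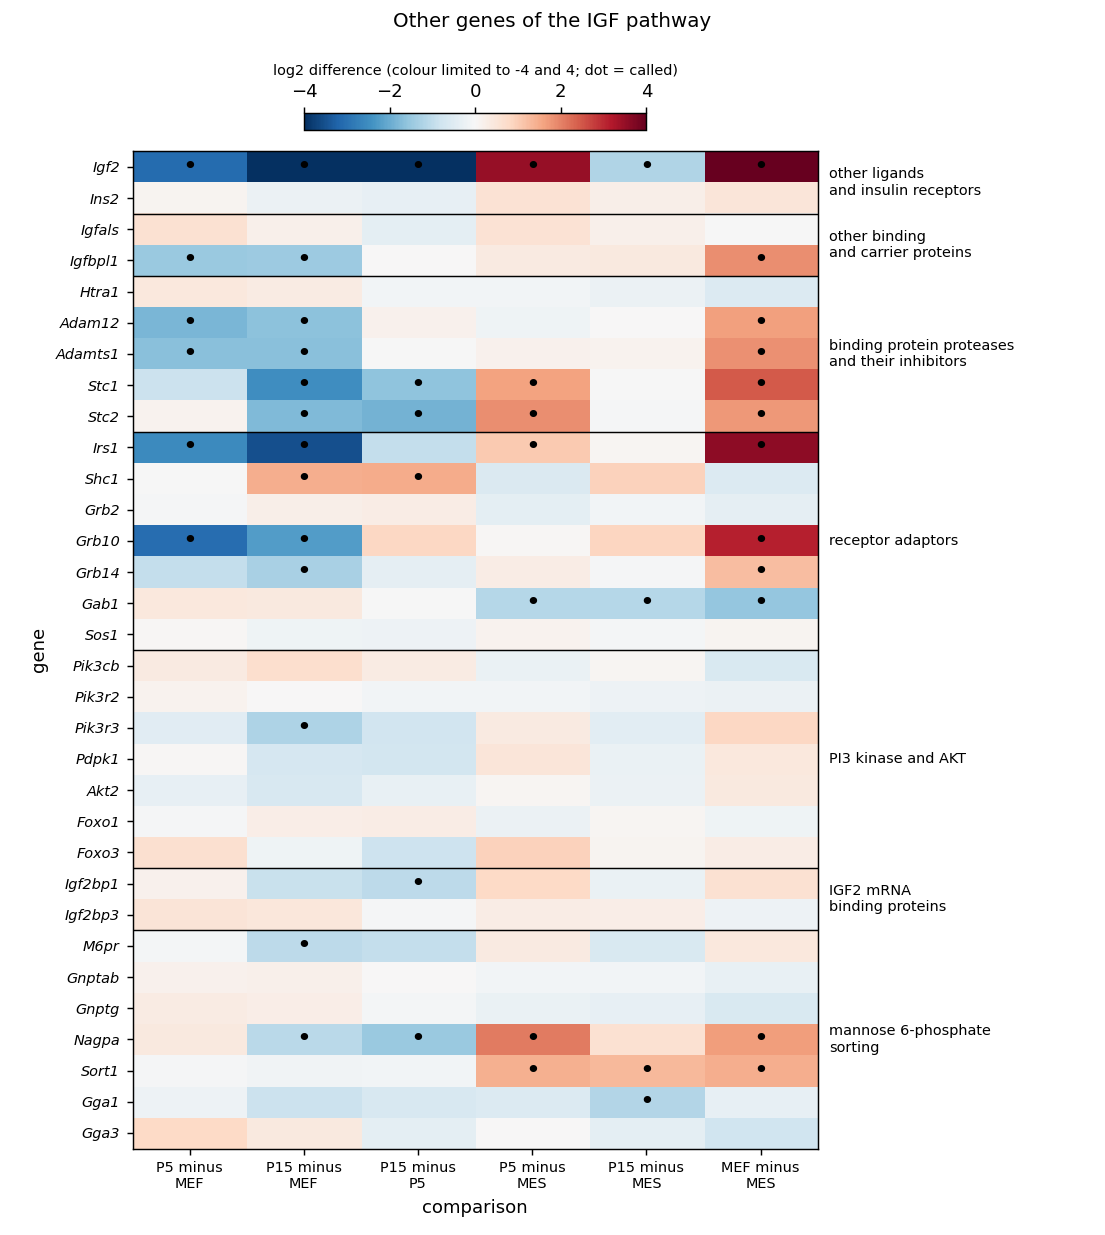
Log2 differences (colour) of the 32 tested genes of the IGF system (y axis, by role) in the 6 comparisons (x axis); dots mark called genes. Igf2, Irs1 and Grb10 are lower at both passages than in MEF, and the rows of the PI3 kinase and AKT list hold 1 dot, that of Pik3r3 at passage 15 against MEF (−1.24, but −0.79, not called, without passage 15 replicate 3 and 0.062 by its other probe).

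The genes most like each of these in pattern were found by the root mean square difference over the 12 arrays after each gene was centred on its own mean, among 9059 named genes. For Igfbp5, whose own SD over the arrays was 2.13, they were Loxl2, a collagen crosslinking enzyme (0.46), the chemokine gene Cxcl12 (0.50) and Flt1, a VEGF receptor (0.51). For Igfbp7, with an SD of 2.00, they were Cavin2 of caveolae (0.42), Anxa1 (0.43) and the adhesion molecule gene Vcam1 (0.44). For Igfbp2, with an SD of 0.77, they were Ddc, which decarboxylates aromatic amino acids (0.18), Gpbp1l1 (0.19) and Cyb5r4 (0.24). Igf1r was nearest to Rasgrp3 (0.22), Lmo4 (0.24) and Creb5 (0.24), and Igfbp4 to Irf2 (0.40), Evl (0.44) and Cdk5r1 (0.48). Igfbp6 was nearest to Tmem204 (0.19), Fkbp14 (0.20) and Nin (0.21), and Igfbp3, by its brightest probe, to Megf9 (0.36), Adgrg6 (0.38) and Dnajb9 (0.44).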

How the data were processed

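Total RNA was treated with DNase, amplified and biotin labelled as cRNA, following the labels' protocols. The deposited raw table holds a linear intensity per probe and array, below 0 in places and not normalized between arrays. Beside it stands a detection p-value per probe, per the file headers. A further deposited table made by the authors holds quantile normalized log2 values, used only as an alternative; the software behind it is not given in the sources used here.

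Raw intensities were corrected and quantile normalized with neqc (offset 16, with the detection p-values standing in for negative control beads) in limma 3.58.1 and R 4.3.3. Of 46657 probes, 20 with a value garbled into a date were dropped. Kept were 19444 probes whose detection p was under 0.05 throughout at least 1 group, and the brightest kept probe stood for each gene (9343 genes). One mean per group was fitted to the 12 arrays with lmFit and eBayes (8 residual and 4.98 prior degrees of freedom). A call needs a Benjamini-Hochberg adjusted p under 0.05 over all genes and at least 2-fold. SE and 95% intervals come from the fit, and SD is between the 3 arrays of a group. The number of arrays limits the precision. The fit was tested on simulated data.

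The genes of interest, all gene lists and the tests were chosen with earlier results of these data known. Named beside all 9 genes are, per role list and comparison, up to 3 called genes with the largest change, Igf2, and the 3 genes nearest in pattern. Promoter windows come from RefSeq, which matched all 9 genes. Alternatives were other normalizations, background and detection settings, probes, chip and replicate blocks, and leaving out each array. Replicate numbers are shared by the groups, and the deviations of same-numbered arrays correlated at −0.09 to 0.27. At passage 5 against MEF they gave 0.04, 0.27 and 0.14 for replicates 1, 2 and 3. Each was above the highest value for unlike numbers there (−2e-04, 0.12 and −0.09). Deviations were taken from the mean of the 3 arrays of a group, so values for like and unlike numbers are not independent. Same-numbered arrays of these groups shared a chip, and so did replicates 1 and 2 of both groups. The main fit did not pair arrays, and the replicate and chip blocks were run as alternatives.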

Additional observations from a re-analysis of the deposited data

How the results depend on the processing

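Over 54 differences of the 9 genes (24 called), 15 calls held in every setting, 9 were lost in at least 1, and 14 of the 30 uncalled differences met the call in at least 1. Only Igfbp3 turned among the called ones: passage 15 against MEF became 0.093 with the mean over probes and 1.26 with the other probe, and its uncalled difference from passage 5 became 0.32 and 1.52. Median scaling, which put the median difference of all genes between −0.68 and 0.61, turned uncalled differences: Igfbp3 at passage 5 against MEF to 0.043, Igfbp6 at passage 15 against MEF to −0.29, Igf1r at passage 5 against MES to 0.22, Igfbp5 at passage 15 against MES to −0.0032, and Igfbp2 and Igfbp6 in MEF against MES to 0.34 and 0.41. Scaling over detected probes, chosen after seeing the data (medians −0.22 to 0.18), gave Igf1 0.64 and Igf1r 0.28 at passage 15 against passage 5 and Igf1 −0.51 at passage 5 against MES. The other probe, also chosen later, gave −0.0019 for Igfbp5 and −0.062 for Igf1 at passage 15 against MES. M6pr at passage 15 against MEF was 0.0061 with the mean over probes, and a random chip block put Igfbp2 at passage 5 against MES at −0.015. Leaving out arrays turned Igf1r at passage 15 against passage 5 (−0.28 to 0.091), Igfbp2 at passage 5 against MES (−0.16 to 0.10) and Igfbp6 in MEF against MES (−0.21 to 0.11). The cause of these turns was not tested.

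Without the 2-fold threshold, calls over all genes came to 3364 and 6253 for passage 5 and passage 15 against MEF, 5309 for passage 15 against passage 5, and 4991, 2611 and 5825 for passage 5, passage 15 and MEF against MES. Of the 9 genes, 7 were then called at passage 5 against MEF and 5 against MES. Igf1, kept through MEF alone, was among the 7. The authors' table gave 920 at passage 15 against passage 5, 788 and 315 for passage 5 and passage 15 against MES, and 1282 for MEF against MES. Median scaling gave 3192 and 2798 for passage 15 against passage 5 and passage 5 against MES. Calls higher and lower were 629 and 962 at passage 15 against passage 5, 115 and 3077 with median scaling and 1214 and 742 with scaling over detected probes; in the same settings they were 931 and 438, 2753 and 45, and 741 and 997 at passage 5 against MES. They were 454 and 652 and, with median scaling, 907 and 511 at passage 5 against MEF, 1140 and 1335 and, with median scaling, 413 and 2201 at passage 15 against MEF, and 1219 and 773 and, with median scaling, 1925 and 204 in MEF against MES. Of the 9 genes at passage 5 against MEF, 5 were called with scaling over detected probes, beside 1198 of all genes. When 1 array was left out, 2 to 5 were called there, beside 957 to 1279 of all genes. At passage 15 against MES, 1 was called with the authors' table and with no detection filter, beside 315 and 621 of all genes. When 1 array was left out, 1 or 2 were called there, beside 530 to 743 of all genes. With the replicate block, 3, 6, 4, 3, 3 and 5 of the 9 genes were called, as without it, beside 1108, 2476, 1592, 1371, 648 and 1994 of all genes. Dim probes of Igf1, Igfbp3, Igfbp5 and Igfbp6 limit what can be measured where they lie at background.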

Other observations

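Insr, the insulin receptor, and Igfbp1, the neighbour of Igfbp3 on chromosome 11, each had 1 probe, which was not above background on all 3 arrays of any group, so neither was tested.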
